A study of Rattus norvegicus with 4 samples.

Results

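Ribosomal proteins and translation factors were followed in rat vestibular ganglion neurons that had been sorted by laser capture according to calretinin, the calcium-binding protein encoded by Calb2. The members were all array probes whose only symbol began like those of large-subunit (Rpl) or small-subunit (Rps) ribosomal proteins, eukaryotic initiation factors (Eif) or elongation factors (Eef). The Rps6k kinases were left out. Such symbols also take in regulators, among them the eIF2 kinases, the eIF4E-binding proteins, Eef2k and Eef2kmt, and these are counted with the translation factors. Members numbered 129 probes for 101 genes, of 16677 probes with 1 symbol, which name 12111 genes, and 35126 probes in all. Of the 129 probes, 115 could be read and 85, for 75 genes, were bright enough to be tested. The 14 others, among them the only probes of Rps3, Rpl23, Rpl35, Eif3d, Eif3l, Eif4g1 and Eif5a2, lie in a stretch of the table where names and values could not be paired.

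Total RNA from pooled cells was labelled with Cy5 and hybridised to 4 one-colour arrays. Calretinin-positive cells (the group calretinin_positive, 2 arrays) are the afferents that form calyces around hair cells, and calretinin-negative cells (calretinin_negative, 2 arrays) those with dimorphic or bouton endings, per the series' design text. The study set the transcripts of these afferent classes against each other. No strain, age, sex, genotype or treatment is named in the labels for either group, nor how many rats gave cells to each pool. Groups rest on the sample titles, because the descriptions of all 4 samples use the wording for positive cells. Nothing says that the arrays of a group came from separate animals, so each p-value reflects array-to-array spread alone, and that spread may be technical.

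A ribosome consists of a small subunit, which reads the messenger RNA, and a large subunit, which joins the amino acids. The eIF4 factors bind the cap of the messenger, eIF2 brings the initiator tRNA, eIF3 holds the small subunit to the messenger, and the eEF factors drive elongation. Genes of ribosomal proteins and of several of these factors are transcribed at high levels in most cells, and neurons replace the elongation factor eEF1A1 in large part by its paralog eEF1A2 as they mature. Many ribosomal protein messengers begin with a pyrimidine run, the 5′ terminal oligopyrimidine tract, through which their translation is controlled.

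On the deposited scale most tested members were higher in the positive group: 60 of 85 probes were called, 49 (57.6%) as higher and 11 (12.9%) as lower, at an adjusted p under 0.05 (limma, Benjamini-Hochberg over all 21070 tested probes). Of all tested probes 64.2% were called, 40.6% as higher and 23.6% as lower. After quantile normalization, which gives all 4 arrays the same distribution of values, 50 members were called, 31 (36.5%) as higher and 19 (22.4%) as lower, against 61.7%, 33.1% and 28.6% of all tested probes, so the members' shares then lay near the background. After cyclic loess normalization 54 were called, 30 as higher and 24 as lower, against 63.9%, 31.7% and 32.2%. The median log2 change (positive minus negative) of the tested members was 0.28 as deposited, 0.09 with quantile and 0.06 with cyclic loess values; over all tested probes these medians were 0.11, 0.02 and -0.01. At least 2-fold differences were rare among members: 3 probes higher and 2 lower, where 8.28% and 7.07% of all tested probes differed by as much on the deposited scale. The 2 groups of arrays did not overlap for 74 of the 85 member probes, against 81.7% of all tested probes.

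**Figure D1:**
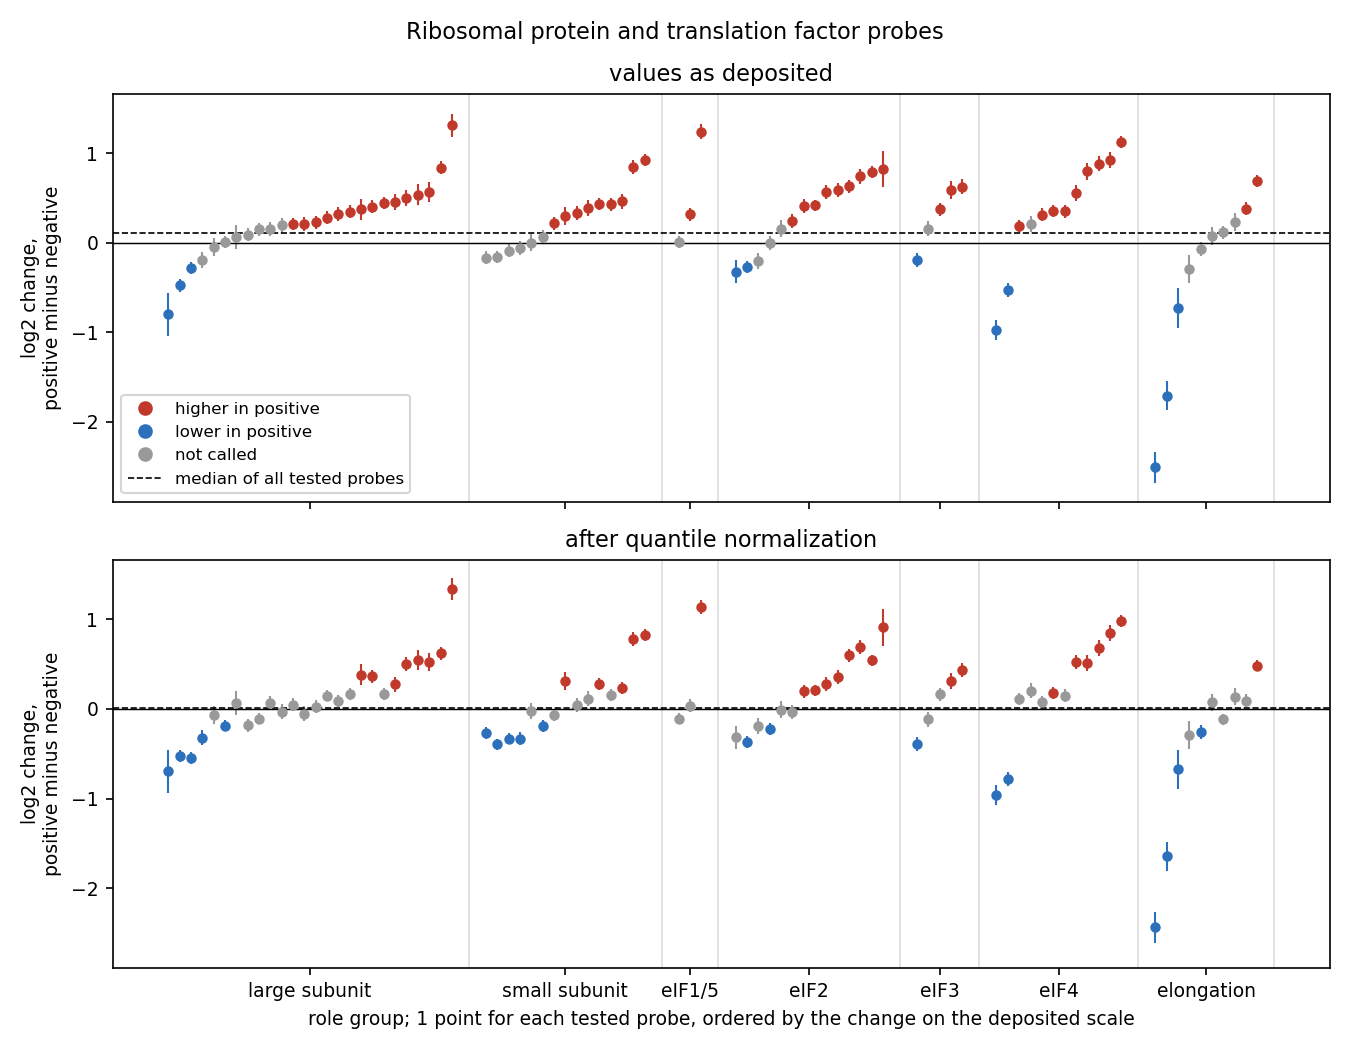
Log2 change (positive minus negative, with SE) of each of the 85 tested probes, grouped by role, on the deposited values and after quantile normalization; the dashed line is the median of all tested probes. Most ribosomal protein points drop toward or below 0 after quantile normalization, and most of the upper eIF2 and eIF4 points also drop but stay above 0, while the 2 low Eef2k points in the elongation group stay below -1.

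Over all members the share called higher on the deposited scale rose with their level. Among ribosomal proteins alone it did not rise steadily. Of these 70% were higher at a mean log2 of 0 to 2, 42.9% at 2 to 4 and 60.9% above 4. Of the 45 member probes with a mean log2 intensity above 4, 66.7% were higher in the positive group and 6.67% lower, where 54.7% and 10.8% of the 5066 tested probes in that range were. After quantile normalization 13 of the 45 (28.9%) were higher and 9 lower, against 31.9% higher and 25.05% lower of all probes in the range. In that range the median log2 change was 0.23 as deposited and 0.01 after quantile normalization over all probes, and 0.32 and 0.07 over these members. Of the 23 ribosomal protein probes above 4, 13.0% were higher and 26.1% lower after quantile normalization, and of 22 factor probes 45.5% and 13.6%. Between log2 0 and 2 the order was the reverse. There 70% of 10 ribosomal protein probes were higher and 0% lower, and of 8 factor probes 25% and 12.5%. Of all probes in that lower range 34.8% were higher and 30.7% lower. Whether the 2 kinds of member differed in either range was not tested. In the plot of change against level the bright ribosomal proteins scatter around the running median of all probes, which itself lies above 0. Small changes of bright members are therefore given below with their value on either scale, and a member is described as settled where its call was the same in every fit that tested it, out of 13 (the deposited scale, 2 normalizations, 2 filters on dim probes, a higher floor, 2 variance priors, a replicate block and each array left out). Of the 49 member probes called higher, 27 (55.1%) kept that call throughout, and of the 11 called lower, 6 (54.5%) did. Over all tested probes these shares were 71.2% and 77.0%, so the members kept their calls no more often than the background.

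**Figure D2:**
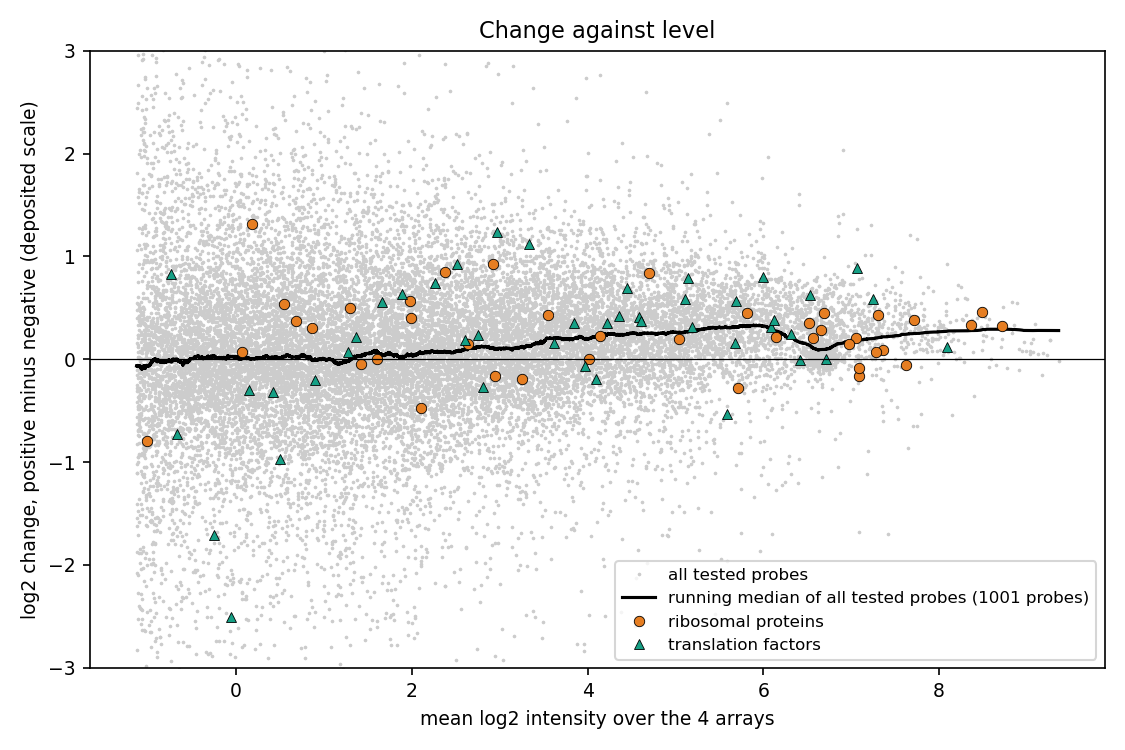
Log2 change on the deposited scale against the mean log2 intensity over the 4 arrays, for all tested probes (grey; changes beyond 3 in either direction lie outside the axes), ribosomal proteins (circles) and translation factors (triangles), with the running median of all tested probes. The running median lies near 0 at low levels and above 0 at high levels, with a dip between log2 6 and 8, and the bright members scatter on both sides of it.

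Among ribosomal proteins, 24 of 41 tested probes (58.5%) were higher in the positive group and 3 (7.32%) lower on the deposited scale. After quantile normalization 13 (31.7%) were higher and 10 (24.4%) lower. Over all tested probes these shares were 40.6% and 23.6%, then 33.1% and 28.6%. Of the 24 ribosomal protein probes called higher, 9 (37.5%) kept their call in all fits that tested them, against 71.2% of all probes called higher. They belonged to 8 genes: Rpsa, represented by 2 probes, Rpl31, Rpl6, Rpl29, Rpl15, Rpl28, Rps18 and Rpl18. A further 15 of the 56 read ribosomal protein probes lay below the limit for dim probes, an intensity of 0.456, and were not tested.

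Promoter windows from RefSeq (build GRCr8) are shown for the settled members Rpsa, Rpl31, Rpl28 and Rpl29 and, for comparison, for the translation regulators Eif4ebp2, Eif5a and Eef2k that are described further on; they were picked with their letters known, to show windows with and without the motifs. Each runs 5′ to 3′ from 40 bases before to 20 bases after the annotated start, and capitals mark CTTTCC, a stretch of pyrimidines as found at the start of many ribosomal protein messengers, and CCGGAAG or its reverse complement CTTCCGG, the core bound by ETS-family transcription factors. The window of Rpl31 holds 3 copies of CTTTCC, of which the last 2 overlap by 1 base. The windows of the settled members Rpl18 and Rps18, not shown, hold 0 copies each.
Rpsa: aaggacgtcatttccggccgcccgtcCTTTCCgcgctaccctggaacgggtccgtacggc
Rpl31: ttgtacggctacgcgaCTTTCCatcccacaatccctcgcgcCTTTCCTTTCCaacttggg
Rpl28: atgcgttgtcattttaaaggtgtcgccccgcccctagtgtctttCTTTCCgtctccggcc
Rpl29: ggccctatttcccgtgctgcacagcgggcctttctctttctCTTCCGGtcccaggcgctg
Eif4ebp2: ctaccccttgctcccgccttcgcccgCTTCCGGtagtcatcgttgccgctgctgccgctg
Eif5a: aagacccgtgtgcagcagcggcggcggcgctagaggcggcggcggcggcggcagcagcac
Eef2k: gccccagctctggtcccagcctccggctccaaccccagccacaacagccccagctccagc

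The windows lie at chr8:128728839-128728898 (Rpsa, plus strand), chr9:49143071-49143130 (Rpl31, plus), chr1:78083513-78083572 (Rpl28, minus), chr8:115947603-115947662 (Rpl29, plus), chr20:29942903-29942962 (Eif4ebp2, minus), chr10:55143202-55143261 (Eif5a, minus) and chr1:184824380-184824439 (Eef2k, plus). Promoters were listed for 87 of the 101 genes, as 89 entries of 300 bases. From 25 bases before to 25 after the start, CTTTCC stood on the sense strand in 13 of 43 ribosomal protein promoters (30.2%), in 1 of 46 factor promoters (2.17%) and in 2.19% of all 33469 promoters (4.40% on either strand). Over the whole 300 bases and either strand, CCGGAAG stood in 27.9% of ribosomal protein promoters, 34.8% of factor promoters and 8.75% of all. These were reported from 9 motifs searched, with the counts of all 9 known. The search also took in TATAAA. It took in CGCGAGA and a longer palindrome that holds it. The remaining motifs overlap CTTTCC in their letters, among them TTTCC within it and a longer form with CT before it. CTTTTCC was searched as the form with a further T. The last was CTTTT. Of the 9 ribosomal protein genes with CTTTCC that were tested (brightest probe), 5 were higher and 0 lower on the deposited scale and 3 higher and 2 lower after quantile normalization; of the 21 without it, 12 were higher and 1 lower, and 5 higher and 4 lower. Over all tested probes 40.6% were higher and 23.6% lower as deposited, and 33.1% and 28.6% after quantile normalization. A match is a description of the letters, not a site.

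In the large subunit 15 of 26 tested probes (57.7%) were higher in the positive group and 3 (11.5%) lower on the deposited scale. After quantile normalization 8 (30.8%) were higher and 5 (19.2%) lower. Over all tested probes these shares were 40.6% and 23.6%, then 33.1% and 28.6%. Rpl31, an exit-tunnel protein, read 35.8 and 33.7 on the positive arrays and 18.9 and 19.9 on the negative arrays. The groups did not overlap, and the log2 change was 0.84 ± 0.07 (SE; adjusted p = 5.06e-06) on the deposited scale and 0.62 (adjusted p = 6.03e-05) after quantile normalization. Smaller settled rises, of 0.40 to 0.57 on the deposited log2 scale, were seen for Rpl18, Rpl28, Rpl15 and Rpl29, the last with 5.33 and 4.31 on the positive and 3.42 and 3.05 on the negative arrays.

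Rpl6 shows how a dim probe and a bright probe of 1 gene can differ. The dim probe read 1.72 and 1.86 on the positive arrays and 0.703 and 0.739 on the negative arrays, a log2 change of 1.31 ± 0.13 (SE; adjusted p = 1.47e-05) on the deposited scale. The bright probe read 104 and 99.4 against 87.2 and 88.5, a log2 change of 0.21 ± 0.07 (adjusted p = 0.0228), with 0.05 for quantile and -0.06 for cyclic loess values (adjusted p = 0.597 and 0.496). The groups did not overlap for either probe, but only the dim probe carried a change of at least 2-fold. The call of the bright probe was also lost without positive replicate 1 and without either negative array.

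For several bright large-subunit proteins the call depended on the scale. An exception was Rpl39, which was called in none of the fits (134 and 131 on the positive arrays against 118 and 122 on the negative arrays). Rpl9 read 468 and 471 on the positive arrays and 379 and 373 on the negative arrays, a log2 change of 0.32 ± 0.07 (SE; adjusted p = 0.00388) that became 0.09 after quantile normalization (adjusted p = 0.285). Rpl3, which lies near the peptidyl transferase centre, read 176 and 164 against 156 and 162, a log2 change of 0.09 (adjusted p = 0.306), and with cyclic loess normalization it was lower at -0.19 (adjusted p = 0.0433). The same loss of a call after quantile normalization was seen for Rpl10 (0.28 on the deposited log2 scale, then 0.15), Rpl11 (0.45, then 0.16), Rpl23a (0.35, then 0.17) and Rplp0 (0.23, then 0.03), and of these Rpl11 was again called after cyclic loess normalization. The acidic stalk protein Rplp1 was not called on the deposited scale with either of its probes (log2 changes 0.00 and 0.19), and the dimmer probe was lower after quantile normalization (-0.19, adjusted p = 0.0315). Rpl21 was called higher on the deposited scale with both probes, at 0.21 and 0.45, and the first became -0.05 after quantile and -0.07 after loess normalization. The second became 0.28 (adjusted p = 0.0159) and 0.18, and its call was lost with loess (adjusted p = 0.0887).

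The 3 large-subunit probes called lower on the deposited scale were those of Rpl37l1, Rpl17-ps16 and Rpl41. Rpl37l1, named as a relative of the ribosomal protein gene Rpl37, read 3.68 and 3.60 on the positive arrays and 5.19 and 4.92 on the negative arrays (log2 change -0.47 ± 0.07, SE; adjusted p = 0.000285), and it was lower in all 13 fits. Rpl17-ps16, named as a pseudogene of Rpl17, read 45.3 and 49.6 against 57.1 and 58.1 (-0.28, and -0.55 after quantile normalization), and its call was lost without positive replicate 1. Rpl41 lay below the limit for dim probes in the positive group, with 0.376 ± 0.0281 (SD, n = 2) against 0.653 ± 0.00622, and lost its call without either negative array. Ribosomal protein genes have many processed pseudogenes of nearly the same sequence, so reads of 1 member can hold signal from its copies.

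In the small subunit 9 of 15 tested probes (60%) were higher on the deposited scale and 0 lower, against 40.6% and 23.6% of all tested probes. After quantile normalization 5 (33.3%) were higher and 5 (33.3%) lower, near the 33.1% and 28.6% of all tested probes. Rpsa, which encodes the ribosomal protein also known as the laminin receptor, stood out in size. Its early probe read 10.3 and 10.7 on the positive arrays and 5.45 and 5.57 on the negative arrays, a log2 change of 0.93 ± 0.07 (SE; adjusted p = 2.12e-06). Its late probe, annotated to the same sequence records but read 5 table rows later, gave 6.69 and 7.23 against 4.11 and 3.63, a log2 change of 0.85 ± 0.08 (adjusted p = 1.62e-05). The groups did not overlap on either probe, and after quantile normalization the changes were 0.83 and 0.78. Rps18, a protein of the head of the small subunit, was the other small-subunit gene settled as higher, at 0.43 on the deposited scale and 0.28 after quantile normalization.

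For most of the remaining small-subunit probes described here the call changed with the scale; Rps27l was higher on all 3 scales (0.30, 0.31 and 0.26), though not without positive replicate 2 or negative replicate 1, and Rps23 was called in no fit. Rps3a read 400 and 448 on the positive arrays and 310 and 305 on the negative arrays, a log2 change of 0.46 ± 0.08 (SE; adjusted p = 0.000823) on the deposited scale, 0.23 (adjusted p = 0.0115) after quantile and 0.15 (adjusted p = 0.107) after cyclic loess normalization. Rps6, the subunit phosphorylated by S6 kinases, read 373 and 365 against 309 and 279, a change of 0.33 that became 0.05 after quantile normalization (adjusted p = 0.624). Rps20 and Rps26 likewise lost their calls, with 0.16 and 0.12 after quantile normalization. Rps27 read 129 and 129 against 143 and 146, a change of -0.16 (adjusted p = 0.0664) that was -0.40 (adjusted p = 0.00066) after quantile normalization. Rps15, Rps19, Rps24 and Rps29 were likewise not called as deposited and lower after normalization, with log2 changes of -0.19 to -0.33 (quantile) and -0.22 to -0.37 (cyclic loess).

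Of the translation factors, with their regulators counted in, 25 of 44 tested probes (56.8%) were higher and 8 (18.2%) lower on the deposited scale. The shares of all tested probes were 40.6% and 23.6%. The call was kept in all fits that tested the probe for 18 of the 25 and 5 of the 8, against 71.2% of all probes called higher and 77.0% of all called lower. After quantile normalization 18 (40.9%) were higher and 9 (20.5%) lower, against 33.1% and 28.6% of all tested probes. The settled members included the eIF4E-binding proteins, subunits and kinases of eIF2, Eif5a and Eef1a2 on the higher side and Eef2k and Eif4h on the lower side, while Eif4e and Eif2s3 each had 1 probe settled on either side. Whether factors and ribosomal proteins differed from each other was not tested.

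**Figure D3:**
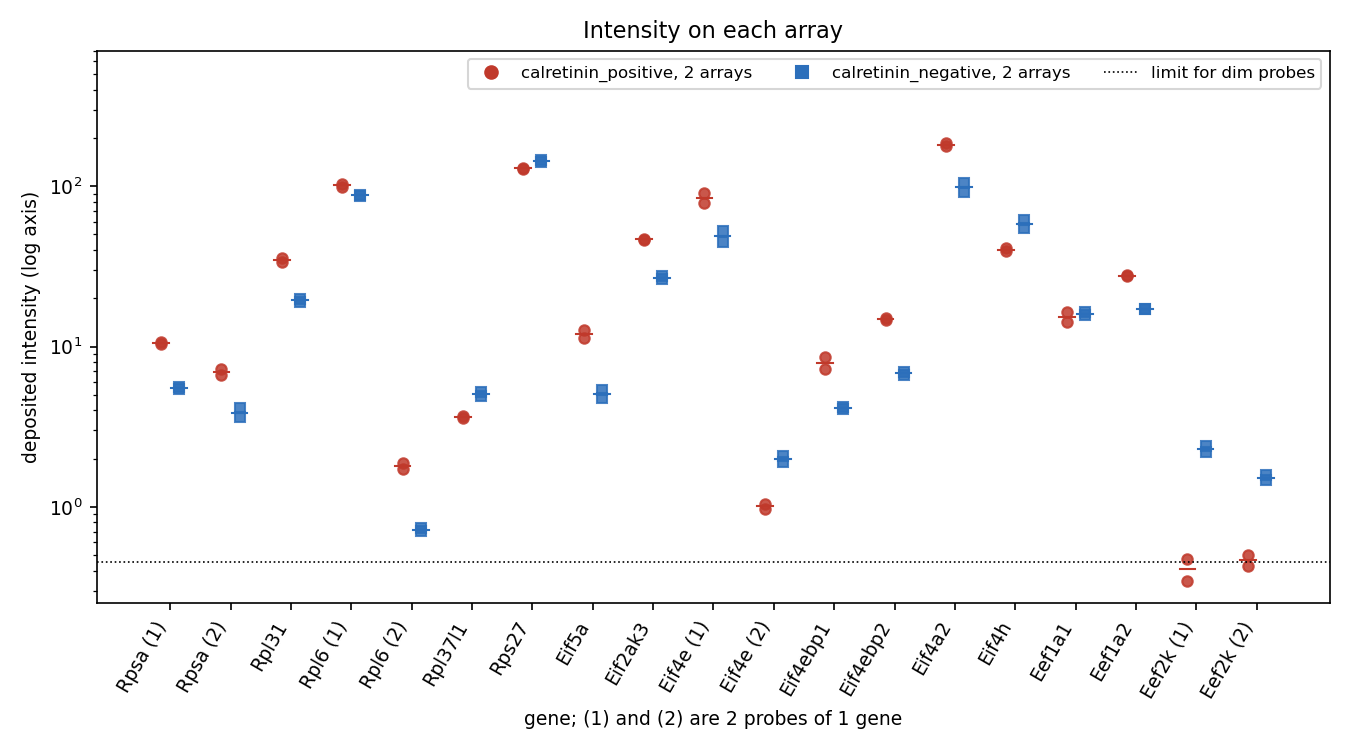
Deposited intensity on each of the 4 arrays (log axis) for ribosomal proteins and translation factors described in the text; horizontal bars are group means, the dotted line is the limit for dim probes, and (1) and (2) are the brighter and dimmer probe of a gene. Both Rpsa probes and both Eef2k probes separate the groups in the same direction, the 2 Eif4e probes in opposite directions.

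The eIF4 group had 9 of 12 tested probes (75%) higher and 2 (16.7%) lower on the deposited scale, against 40.6% and 23.6% of all tested probes. After quantile normalization 6 (50%) were higher and 2 (16.7%) lower, against 33.1% and 28.6%. Eif4ebp2, an inhibitor that holds eIF4E away from the cap complex and the main such protein of brain, read 14.5 and 15.1 on the positive arrays and 6.69 and 6.94 on the negative arrays. The groups did not overlap, and it was 2.18-fold higher in the positive group on the deposited scale (log2 change 1.12 ± 0.07, SE; adjusted p = 6.63e-07) with a log2 change of 0.98 after quantile normalization. Eif4ebp1, its paralog, read 7.19 and 8.61 against 4.08 and 4.20, a log2 change of 0.93 ± 0.09 (adjusted p = 1.58e-05) and 0.85 after quantile normalization. Both inhibitor genes were higher in every fit that was run. Eif4a2, an RNA helicase of the cap complex, read 178 and 186 against 105 and 92.7, a log2 change of 0.89 ± 0.08 (adjusted p = 1.03e-05) and 0.68 after quantile normalization, and its paralog Eif4a1 had 0.35 and 0.17.

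The cap-binding protein gene Eif4e gave opposite calls with its 2 tested probes. The bright probe read 78.8 and 90.2 on the positive arrays and 52.3 and 45.0 on the negative arrays, a log2 change of 0.80 ± 0.09 (SE; adjusted p = 5.73e-05). The dim probe, in the late part and annotated to another sequence record, read 0.974 and 1.04 against 2.06 and 1.90, a log2 change of -0.97 ± 0.11 (adjusted p = 4.55e-05). Both calls held in all fits that tested them, so Eif4e has no single direction on this array. Eif4h, a cofactor of the eIF4A helicase, read 39.4 and 40.9 against 54.7 and 61.4 and was lower in the positive group in all 13 fits (-0.53 ± 0.08, adjusted p = 0.000213; -0.78 after quantile normalization). Eif4b was higher with both probes on the deposited scale (0.55 and 0.31) and with the dimmer one after quantile normalization (0.53).

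The eIF2 group holds the subunits of eIF2, its exchange factor eIF2B and the kinases that phosphorylate eIF2 under stress. In it 9 of 14 tested probes (64.3%) were higher and 2 (14.3%) lower on the deposited scale, against 40.6% and 23.6% of all tested probes. After quantile normalization 8 (57.1%) were higher and 2 (14.3%) lower, against 33.1% and 28.6%. Eif2ak3, the kinase PERK of the endoplasmic reticulum, read 47.0 and 46.3 on the positive arrays and 26.2 and 27.7 on the negative arrays. Its log2 change was 0.79 ± 0.07 (SE; adjusted p = 5.91e-06) on the deposited scale and 0.54 (adjusted p = 9.74e-05) after quantile normalization, with no overlap of the groups. Eif2ak4, the amino acid sensor GCN2, had log2 changes of 0.63 and 0.60, and the bright probe of Eif2ak2, the kinase PKR that senses double-stranded RNA, 0.57 and 0.28. The dim probe of Eif2ak2 read 1.75 and 1.72 against 2.01 and 1.99, which was not called as deposited (-0.20, adjusted p = 0.0728) and was lower after cyclic loess normalization (-0.25, adjusted p = 0.0343). The haem-regulated kinase gene Eif2ak1 was not called (11.7 and 14.5 against 11.6 and 11.8).

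Of the eIF2B exchange factor, Eif2b1 read 5.88 and 6.55 on the positive arrays and 3.88 and 3.53 on the negative arrays, a log2 change of 0.75 ± 0.08 (SE; adjusted p = 3.82e-05). Eif2b4 was higher by 0.41 and by 0.20 after quantile normalization, and Eif2b3, below the limit for dim probes in the negative group, read 0.815 and 0.785 against 0.435 and 0.469. Eif2b2 did not pass (-0.00) and was lower after quantile normalization (-0.22, adjusted p = 0.0173), and the tested probe of Eif2b5 was lower on the deposited scale (-0.32, adjusted p = 0.0487), a call that was lost in 6 of the 12 fits that tested it, among them those without positive replicate 2 and without either negative array. The subunits of 1 complex thus did not all have the same call, and whether they differed from each other was not tested. Of eIF2 itself, Eif2s2, the beta subunit gene, was higher by 0.59 and by 0.36 after quantile normalization, Eif2s1, the alpha subunit, had 0.24 and -0.03, and the gamma subunit gene Eif2s3 gave opposite calls with its 2 probes (0.42 and -0.27 on the deposited scale).

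Of 5 tested eIF3 subunits, Eif3h, Eif3i and Eif3e were higher on the deposited scale and Eif3a was lower. Eif3h read 119 and 110 on the positive arrays and 79.1 and 69.6 on the negative arrays (log2 change 0.63 ± 0.08, SE; adjusted p = 0.000126; 0.43 after quantile normalization). Eif3i read 168 and 208 against 124 and 125 (0.59 ± 0.10, adjusted p = 0.000552; 0.31 after quantile normalization). Eif3a, the largest subunit of the complex, read 16.4 and 15.5 against 17.3 and 19.2 (-0.19, adjusted p = 0.0463; -0.39 after quantile normalization), and lost its call without positive replicate 2 and without negative replicate 2. Eif3e became 0.16 after quantile normalization, with an adjusted p of 0.0834.

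Eif5a, whose hypusine-bearing product helps ribosomes through stretches that stall, was the factor with the largest rise: 12.7 and 11.4 on the positive arrays against 5.37 and 4.80 on the negative arrays, or 2.36-fold on the deposited scale. Its log2 change was 1.24 ± 0.08 (SE; adjusted p = 1.46e-06) and 1.14 after quantile normalization; a further probe of the gene was below the limit for dim probes and its only paralog on the array, Eif5a2, was not read. Of the start-site factors, Eif1ax read 74.5 and 77.3 against 58.3 and 63.5 and Eif1b 103 and 108 against 103 and 107. Eif1ax lost its call after quantile normalization (0.32, then 0.04), and Eif1b had 0.01 and -0.11, neither called, but was lower after cyclic loess normalization (-0.26, adjusted p = 0.00668).

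Of elongation factors and their modifiers 2 of 10 tested probes (20%) were higher and 3 (30%) lower on the deposited scale, against 40.6% and 23.6% of all. The lower ones were all probes of modifiers, Eef2k and Eef2kmt, and the higher ones those of the elongation factors Eef1a2 and Eef1b2. After quantile normalization 1 (10%) was higher and 4 (40%) were lower, against 33.1% and 28.6%. Eef1a2, the form of eEF1A found in neurons and muscle, read 27.9 and 27.4 on the positive arrays and 17.1 and 17.2 on the negative arrays. The groups did not overlap, with a log2 change of 0.69 ± 0.06 (SE; adjusted p = 1.1e-05) and 0.48 after quantile normalization. The 1 tested probe of Eef1a1, the form found in most other cells, read 16.5 and 14.3 against 15.7 and 16.4, so the groups overlapped (log2 change -0.07, adjusted p = 0.491); after quantile normalization it was lower at -0.26 (adjusted p = 0.0206). The 2 other read probes of Eef1a1 and the read probe of Eef2 lay below the limit for dim probes. Of the eEF1B exchange subunits, Eef1b2 was higher by 0.38 and by 0.09, with no call, after quantile normalization, while Eef1d (276 and 291 against 266 and 257) and Eef1g passed on neither; Eef1d was lower after cyclic loess normalization (-0.19, adjusted p = 0.0399).

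Eef2k, the calcium and calmodulin-dependent kinase that inhibits eEF2, had the largest log2 change of the tested members, and it was lower in the positive group. That size rests on positive values near or below the limit for dim probes, an intensity of 0.456. Its early probe read 0.504 and 0.430 on the positive arrays and 1.46 and 1.58 on the negative arrays, a log2 change of -1.71 ± 0.16 (SE; adjusted p = 1.45e-05). The value of 0.430 lay below the limit and that of 0.504 just above it, so the direction is read here rather than the size. Its late probe read 0.346 and 0.471 against 2.40 and 2.21, with the positive group below the limit for dim probes, so no fold is given (adjusted p = 1.79e-06). The 2 probes lie in parts of the table that were paired with names in different ways, and both separated the groups in the same direction in all fits that tested them. Eef2kmt, a methyltransferase for eEF2, was lower with 1 of its 2 probes (0.415 and 0.574 against 0.778 and 0.839), and that call was lost without positive replicate 1 and without negative replicate 2.

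Genes with several probes did not always give 1 call. Of 24 member genes with at least 2 read probes, 10 had at least 2 tested. On the deposited scale 6 of these gave the same result with each probe: Eef2k, Eif4b, Rpl21, Rpl6, Rpsa and Rplp1, the last not called with either. Opposite calls were given by 2 genes, Eif2s3 and Eif4e. Of the 6, only Eef2k and Rpsa still had the same result with each probe after quantile normalization. After cyclic loess normalization the probes of Eif2ak2 also gave opposite calls. In the late part, the 31 ribosomal protein probes had a median intensity of 11.8 when read 5 table rows later and 2.05 at their own rows, where the median over all probes was 1.02. The 25 early ribosomal protein probes, read at their own rows, had a median of 2.68.

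Other genes of the translation apparatus, represented by the brightest probe of each, were counted in the same way. Over all tested probes 40.6% were higher and 23.6% lower as deposited, and 33.1% and 28.6% after quantile normalization. Choosing the brightest probe favours bright probes. Of all tested probes above a mean log2 of 4, 54.7% were higher as deposited and 31.9% after quantile normalization. The lists were not matched to a background of their own level. Of 53 tested genes of the mitochondrial ribosome 38 were higher and 2 lower, and 24 and 5 after quantile normalization; the median log2 changes were 0.37 and 0.16. Mrps15 averaged 16.5 ± 1.01 (SD, n = 2) on the positive arrays and 8.79 ± 0.0366 on the negative arrays, and Mrpl47 36.8 ± 0.224 and 20.3 ± 2.20. Of 28 ribosome biogenesis genes 19 were higher and 1 lower, then 15 and 3, with medians of 0.42 and 0.24. Wdr12, a large-subunit assembly factor, had 42.2 ± 1.43 and 24.3 ± 1.05, and Polr1b, a subunit of RNA polymerase I, 43.2 ± 0.0554 and 27.6 ± 1.09.

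Of 16 aminoacyl-tRNA synthetases and associated proteins 12 were higher and 0 lower, and after quantile normalization 9 and 0, with medians of 0.57 and 0.38. Iars1, which charges isoleucine tRNA, had 54.0 ± 1.69 (SD, n = 2) in the positive and 26.9 ± 2.40 in the negative group, and Cars1, which charges cysteine tRNA, 33.8 ± 0.0311 and 17.9 ± 1.55. That list holds Eef1e1, which is also a member here and was not called. Of 27 genes of translation control and termination 15 were higher and 2 lower, then 10 and 4, with medians of 0.30 and 0.09. Rps6ka3, a ribosomal S6 kinase, had 15.3 ± 0.391 and 8.27 ± 0.192, and Mlst8, a subunit of the mTOR complexes, 7.47 ± 0.553 and 3.94 ± 0.294. The plot of shares by group sets these lists beside the members.

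**Figure D4:**
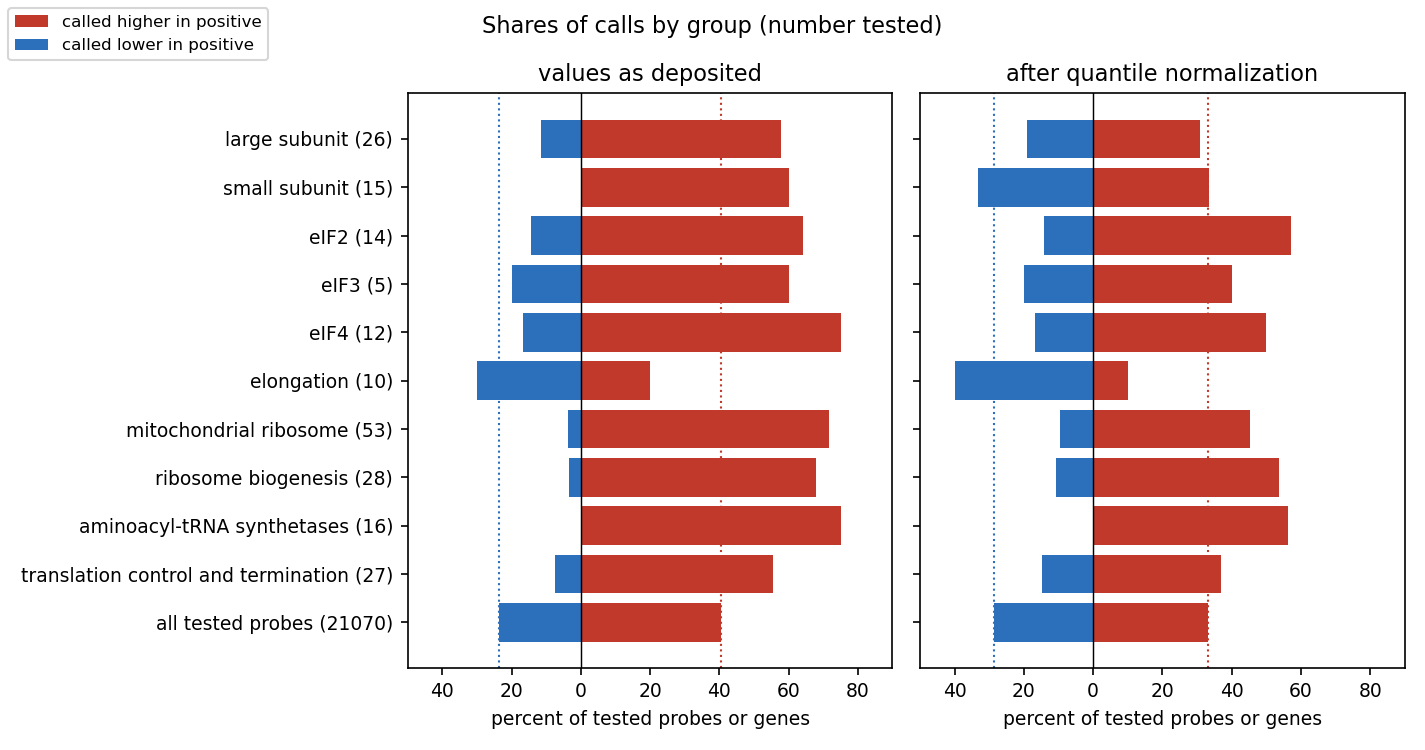
Percent of tested probes (members) or genes (other lists, by their brightest probe) called higher (right of 0) and lower (left of 0). Deposited values and values after quantile normalization are shown. Dotted lines are the shares over all tested probes, not limited to the brightest probe of a gene and not matched for level. The eIF1 and eIF5 group of 3 probes is left out. The elongation group includes modifiers, and its lower calls on the deposited values are all of the modifiers Eef2k and Eef2kmt. After quantile normalization the ribosomal subunits lie near the dotted lines, at 30.8% and 33.3% higher. Of the 16 genes of aminoacyl-tRNA synthetases and associated proteins 9 were still higher.

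Across tested probes the log2 values of the 2 positive arrays gave r = 0.9896, those of the 2 negative arrays 0.994 and pairs from different groups 0.925 to 0.928; probes are not independent replicates. Calb2, which chose the cells, had 309 ± 26.0 (SD, n = 2) in the positive and 134 ± 6.67 in the negative group and so followed the titles. Beside the marker counts that follow, 40.6% of all tested probes were higher and 23.6% lower as deposited. After quantile normalization these shares were 33.1% and 28.6%. Of 6 tested neuron markers 4 were higher in the positive group on the deposited scale and 1 lower, with summed intensities of 398 to 410 against 386 to 389 on the negative arrays; 2 were higher and 1 lower after quantile normalization. Of 5 tested oligodendrocyte and astrocyte markers 4 were lower, with summed intensities of 15.1 to 16.3 on the positive arrays and 219 to 230 on the negative arrays. Schwann cell and satellite glia markers were lower in 6 of 8 and higher in 1 (summed 286 to 298 against 366 to 379), and endothelial and mural markers lower in 6 of 6 (22.9 to 23.2 against 52.0 to 53.1). Blood and immune markers were lower in 3 of 5 and higher in 2 (89.7 to 93.4 against 155 to 165), and hair cell markers lower in 2 of 3 (9.47 to 9.87 against 11.7 to 12.2). Fibroblast and meningeal markers were lower in 2 of 5 and higher in 2, with a summed intensity that was higher on the positive arrays (204 to 207 against 129 to 136). The 2 higher ones were Upk1b, at 26.0 against 4.18 (log2 change 2.64), and Ogn, at 117 against 55.1 (log2 change 1.08). The 2 lower ones were Dcn (log2 change -0.97) and Col1a1 (log2 change -0.24), and Col1a2 was not called. No marker of these lists had a group mean of 0, and Snap25, Mag, Slc1a2, Acta2, Kdr, Lum and Myo7a lay below the limit for dim probes. The neuron markers called on all 3 scales were Nefh and Nefm, higher (log2 changes 1.62 and 0.58 as deposited), and Prph, lower (-1.01). Some markers of neurons, glia, endothelium, blood, meninges and hair cells thus differed between the same arrays as the members. The part of such markers in the members' changes was not tested. In such pools fewer cells of a type and less RNA per cell cannot be told apart.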

How the data were processed

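The deposited value table holds intensities on a linear scale for 4 one-colour (Cy5) arrays, 35126 probes each; array medians near 0.99 point to scaling by the authors, while background correction, centring and scanner were not stated in the labels. The small number of arrays limits precision. Probe names came from the platform annotation; all 129 members had their gene ID in the RefSeq table with the same symbol. IDs up to 144112 were read at their own row and IDs from 185001 on at the value 5 rows later; those between were not read. The file's code for missing values was read as missing. Zero or negative values (532 to 776 per array) and missing ones were set to each array's 1st percentile of positive values before log2. Probes with a mean log2 below the 40th percentile were left out, leaving 21070.

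The test was limma's (version 3.58.1, R 4.3.3; lmFit, eBayes with trend, two-sided, Benjamini-Hochberg over all tested probes, threshold 0.05), on the deposited scale and after quantile and cyclic loess normalization. With 2 arrays a group, the smallest p of an exact permutation test is 0.333. The code was tested on simulated data. Named members were those with a call and at least 2-fold change, the 2 with the smallest p in each direction and the 2 brightest of each role group, Eef1a1, Eef1a2, Eef2, Rplp0, Rpsa and the Eif4ebp genes, and genes with at least 2 read probes; others are named as examples. Among these others, chosen after their values were seen, are the members settled over all fits and those whose call a normalization changed. Outside genes were the 2 with the smallest p of each pathway list. Members and lists were chosen with earlier results of these data known. Of the promoter motifs searched, those reported were chosen with their counts known. Figures were drawn with matplotlib 3.10.9.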

Additional observations from a re-analysis of the deposited data

How the results depend on the processing

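The number of members called, 60 on the deposited scale, stayed within 1.5 times under all alternatives but one: names of the early part only, which leaves 37 tested members, gave 26 calls (20 higher, 6 lower). Members called higher fell from 49 to 31 with quantile and 30 with cyclic loess normalization, and members called lower rose from 11 to 19 and 24; members called lower were 5 with the limit for dim probes at the 60th percentile and 7 with the brightest probe of each gene, which tests fewer probes. The median log2 change of the members, 0.28, was 0.0858 with quantile and 0.0622 with loess normalization. Reading all names at their own row gave 60 calls, as many as the reading used, so this count does not tell the readings apart. Fits without one of the arrays gave 52 to 58 member calls (43 to 49 higher, 9 to 11 lower), medians of 0.258 to 0.314 and 12262 to 12764 calls among all probes, with the lone array assumed to vary like the other group. The replicate block gave 63 member calls and 13711 in all against 13530; the deviations of arrays with the same replicate number from their group means were uncorrelated (r = 0.000316), so no pairing is read from the numbers.

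Of 662 values of the 56 named probes over 12 alternatives, 579 kept their side of the threshold, 54 lost and 19 gained a call with their direction kept, and 10 changed sign with a call on one side. Those 10 were, with quantile normalization, Rplp1 (-0.187), Rpl21 (-0.0535) and Eif2s1 (-0.0299), and with cyclic loess normalization Rplp1 (-0.183), Rpl21 (-0.068), Eif2s1 (-0.0144), Rpl6 (-0.0555), Rpl3 (-0.194), Eif1b (-0.261) and Eef1d (-0.189). The cause was not tested.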
